A study of Mus musculus with 4 samples.

Results

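The colony-stimulating factor receptors of sorted brain myeloid cells are described here through 4 genes of the 16342 counted: Csf1r, Csf1, Csf2ra and Csf2rb. They were chosen by name, and all of them were in the 4 deposited count tables. The cells came from the corpus callosum, a white matter tract, of male C57BL/6 mice aged 13 weeks, and were sorted as live nucleated single cells carrying the myeloid integrin CD11b. Of 4 libraries made with a droplet kit that counts molecules (UMIs) from the 3′ ends of transcripts, 2 came from mice on cuprizone (week 5), a copper chelator used to bring about loss of myelin, and 2 from mice not treated (week 0). All groups share strain, sex, age and gate. Whether each library is a separate animal or a pool is not in the labels. The spread between libraries may therefore be technical. The p-values rest on that spread together with spread borrowed from other genes, and may not cover differences between animals.

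CSF1R is the receptor tyrosine kinase that microglia need to survive and divide, and its ligands are CSF1 and interleukin 34. The GM-CSF receptor pairs an alpha chain specific to GM-CSF (Csf2ra) with a signalling beta chain (Csf2rb) that the receptors for interleukin 3 and interleukin 5 also use. In mice a near copy of the beta chain, Csf2rb2, serves interleukin 3 alone.

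Of 3707 cells that passed filters, 3564 fell in 10 microglia-like clusters, with 911 and 853 cells at week 5 and 902 and 898 at week 0. Each deposited table held 1000 barcodes, and 6 barcodes were found in more than 1 library. All 12 microglia markers were detected in each library. Of 11 T or NK cell markers 2 and 4 were detected in microglia-like cells at week 5, against 1 and 1 at week 0. They had 48 and 31 UMIs, against 21 and 49. Of 8 neutrophil markers, 5 of them in the count tables, 2 and 1 were detected, against 1 and 2. They had 1183 and 764 UMIs, against 566 and 1102, of which Csf3r gave 1182 and 764, against 566 and 1101. Cd3e, Ly6g and S100a8 had no UMI in the microglia-like cells of any library. Median UMIs per microglia-like cell were 6117 and 2332 at week 5 and 1499.5 and 3912.5 at week 0. Shares of cells with a UMI are therefore given after each cell was thinned to 1000 UMIs, unless stated otherwise. The libraries were spread unevenly over the clusters. In week 0 replicate 1, 538 and 135 of 902 microglia-like cells fell in the larger and the smaller of 2 shallow clusters. Both were led by the non-coding gene Gm43221. They held 121 and 23 of 898 cells in week 0 replicate 2. At week 5 they held 132 and 82 of 911 cells in replicate 1 and 193 and 171 of 853 in replicate 2. A cluster led by Ecscr held 446 cells of week 0 replicate 2, against 31 of week 0 replicate 1 and 2 and 20 at week 5. Clusters are named by their leading gene below, and they were made with the 4 genes left out.

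The promoters of Csf1 and Csf2ra are shown because these are the members with the largest fold changes between weeks. Each line holds the 250 bases before the gene's start in RefSeq (GRCm38.p6), on the minus strand, written 5′ to 3′. Capitals mark motif matches found by searching both strands.

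Csf1, chr3:107760470-107760719: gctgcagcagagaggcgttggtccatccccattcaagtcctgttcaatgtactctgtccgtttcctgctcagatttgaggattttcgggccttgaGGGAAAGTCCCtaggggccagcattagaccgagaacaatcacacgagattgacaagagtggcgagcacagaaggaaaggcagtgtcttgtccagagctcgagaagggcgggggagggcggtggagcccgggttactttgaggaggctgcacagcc

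Csf2ra, chr19:61228419-61228668: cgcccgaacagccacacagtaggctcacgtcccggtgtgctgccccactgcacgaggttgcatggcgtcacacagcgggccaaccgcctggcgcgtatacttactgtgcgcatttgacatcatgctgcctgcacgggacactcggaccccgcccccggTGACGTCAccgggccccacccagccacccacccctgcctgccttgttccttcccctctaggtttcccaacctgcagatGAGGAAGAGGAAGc

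In the Csf1 window the capitals are a match to the 11-base form of the NF-kB motif, 155 bases before the start, which 7.24% of 32851 promoter windows of the same length hold. The 10-base form of the motif, held by 3.90% of windows, matched on the other strand within the same bases. The Csf2ra window holds the cyclic AMP response element TGACGTCA 92 bases before the start, found in 1.55% of windows. It also holds 2 matches to the PU.1 motif GAGGAAG, 14 and 8 bases before the start, which share 1 base. This motif is held by 10.6% of windows. GENCODE places the start of Csf2ra at base 61228429, inside this window. By that start the second PU.1 match lies within the gene and the first lies partly within it. The AP-1 motif TGANTCA (6.75% of windows) and the EGR motif GCGNGGGCG (4.70% of windows) had no match in either window. A match is a description of letters and not a bound site.

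Csf1, the ligand gene, rose in the microglia-like cells of cuprizone-treated mice. Csf1 lies on chromosome 3 (GRCm38, 107741048 to 107760469, minus strand). In microglia-like cells it had 170 and 66.8 CPM (UMIs per 1000000, scaled to effective library size) at week 5, against 12.4 and 15.2 CPM at week 0. Behind these values stood 865 and 205 UMIs at week 5 and 30 and 72 UMIs at week 0. Both week 5 libraries lay above both week 0 libraries, and the week 5 libraries differed from each other more than the week 0 libraries did. The log2 fold change was 3.09 (SE 0.40, 95% interval 2.22 to 3.96), with an adjusted p of 0.00119 by edgeR's quasi-likelihood test over 11002 genes. In that fit 371 genes, or 3.37%, were called at an adjusted p under 0.05, with 335 (3.04%) upward and 36 (0.327%) downward. Scaled by library size alone the split was 318 upward and 108 downward, and the median over all genes moved to -0.25 on the log2 scale, in place of -0.016.

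The size of the Csf1 rise depended on week 5 replicate 1. Without that library the log2 fold change was 2.26, with week 5 then a single library, assumed to vary as week 0 did. Without the Spp1-led cluster, to which week 5 replicate 1 gave 192 cells and week 5 replicate 2 gave 42, it was 2.31 (adjusted p = 1.93e-05, edgeR). Without the Ccl4-led cluster it was 3.13. Markers of border-associated macrophages (BAM), the macrophages of meninges and vessels, summed in microglia-like cells to 105 and 29.5 CPM of total UMIs at week 5, with 10 and 7 of 10 markers detected, and to 24.2 and 25.0 CPM at week 0, with 6 and 8 detected. Csf1 itself was at 16.5 and 0 CPM in the BAM-like cells of week 5.

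Csf1r, on chromosome 18 (61100598 to 61132149, plus strand), had the most UMIs of the 4. It had 3160 and 3108 CPM at week 5, against 3634 and 3760 CPM at week 0. Both week 5 libraries were lower, and the groups did not overlap, as held for 42.4% of the 11002 genes. The log2 fold change of -0.24 (SE 0.41, 95% interval -1.13 to 0.65) did not pass the test (adjusted p = 0.893, edgeR), and the interval holds changes in either direction. After thinning, 90.1% and 90.7% of microglia-like cells held a Csf1r UMI at week 5, against 97.9% and 96.9% at week 0. In T or NK cell-like cells of all libraries 25.8% held one at the same depth, 8 of 31 cells. These cells were led by S100a6, as was a monocyte-like cluster of 12 cells at a finer clustering. The finer clustering had 19 T or NK cell-like cells, so the set may hold monocytes and its shares are not a background level. Unthinned, 97.9% of microglia-like cells (median 3571.5 UMIs) and 38.7% of T or NK cell-like cells (median 6114 UMIs) held a Csf1r UMI. The 3′ end of Csf1r overlaps the minus-strand gene Hmgxb3 by 873 bases, and no source used here states whether counting used strand. Hmgxb3 itself stood at 19.9 to 34.0 CPM of total UMIs in all cells.

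Csf2ra, the GM-CSF-specific chain, is on chromosome 19 (61223957 to 61228429, minus strand). It had 145 and 170 CPM at week 5, against 87.5 and 81.0 CPM at week 0. The groups did not overlap, as held for 42.4% of the 11002 genes in either direction. For Csf2ra both week 5 libraries were above both week 0 libraries. Its log2 fold change of 0.90 (SE 0.22, 95% interval 0.41 to 1.39) missed the threshold narrowly (adjusted p = 0.0531, edgeR) and passed it in 8 of 18 alternatives, such as DESeq2 (0.92, adjusted p = 0.0251); in 2 of the 8 week 5 was a single library, assumed to vary as week 0 did. Over these alternatives the adjusted p ran between 0.00191 and 0.443.

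Csf2rb, the shared beta chain, is on chromosome 15 (78325752 to 78353847, plus strand). It had 92.1 and 82.5 CPM at week 5, against 64.0 and 69.8 CPM at week 0. Week 5 was higher in both libraries, where 42.4% of all genes did not overlap between weeks in either direction. The log2 fold change of 0.38 (SE 0.21, 95% interval -0.07 to 0.84) did not pass (adjusted p = 0.492, edgeR). Csf2rb2 lies 20030 bases away on the other strand, and reads could be split between the copies in counting, so both are uncertain. Csf2rb2 had 30.6 and 27.1 CPM at week 5, against 25.6 and 21.4 CPM at week 0 (log2 fold change 0.31, adjusted p = 0.689, edgeR).

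**Figure D1:**
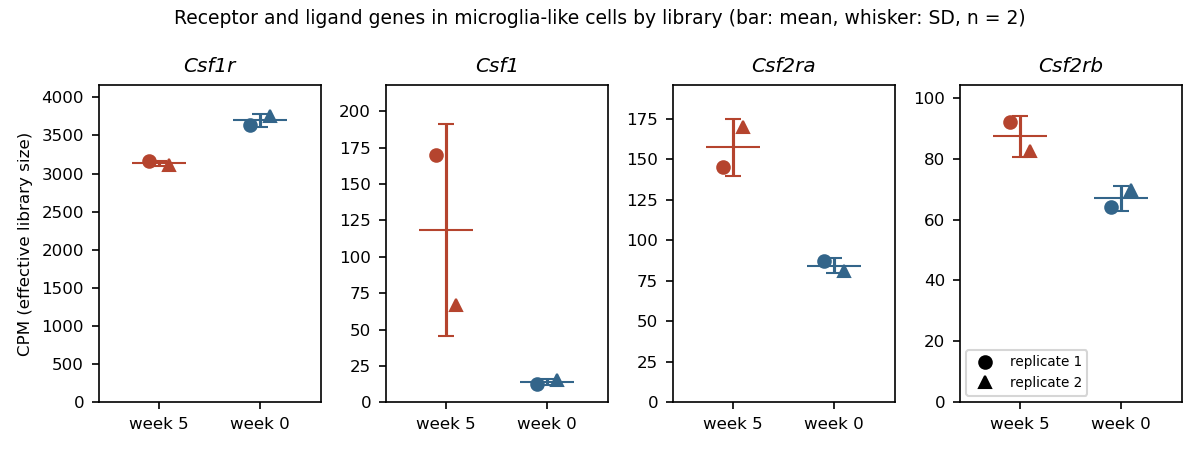
CPM of Csf1r, Csf1, Csf2ra and Csf2rb in microglia-like cells of each library, week 5 left of week 0; horizontal bars are means and whiskers SDs of 2 libraries. Csf1 stands at 170 and 66.8 CPM at week 5, against 12.4 and 15.2 CPM at week 0, while Csf1r lies at 3160 and 3108 CPM, against 3634 and 3760 CPM.

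The ligands of these receptors were scarce in the sorted cells apart from Csf1. Csf2, which encodes GM-CSF, had no UMI in any cell of any library, and neither did Il3, Il5 or Csf3. A count of 0 allows up to 0.463 and 0.920 CPM at week 5 and up to 1.27 and 0.675 CPM at week 0, counting error only. Il34, the other CSF1R ligand, had 1 UMI in all, in week 0 replicate 1. The GM-CSF receptor chains were therefore counted in cells where their ligand's transcript was not detectable at this depth.

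Il3ra, the alpha chain that pairs with the beta chains to bind interleukin 3, rose with cuprizone. It had 19.4 and 9.13 CPM at week 5, against 0.413 and 0.635 CPM at week 0. In UMIs this was 127 at week 5 against 4 at week 0 (99 and 28, against 1 and 3), a depth-scaled ratio of 27.8 with a 95% counting interval of 10.6 to 104. It passed the test with an adjusted p of 0.00136 (edgeR, fitted log2 fold change 4.64, SE 0.62), and both week 5 libraries were higher. Of the 4 measured receptor chains of this family, Il3ra was the called one, where 3.37% of all genes were called. Csf2ra, another of the 4, missed the threshold narrowly (adjusted p = 0.0531, edgeR). Il5ra had no UMI. Csf3r, the G-CSF receptor, had 232 and 249 CPM at week 5, against 234 and 233 CPM at week 0 (log2 fold change 0.044, adjusted p = 0.972, edgeR).

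The kinases and adaptors that act below CSF1R gave no call: 0 of 24 tested genes of a CSF1R signalling list passed, where 3.37% of all genes did, with a median log2 fold change of -0.028 beside -0.016 for all genes. Among the most abundant of them, Tyrobp, which encodes the adaptor DAP12, had 5058 and 2370 CPM at week 5, against 1815 and 2225 CPM at week 0 (0.88, adjusted p = 0.472, edgeR). The Src-family kinase gene Lyn had 678 and 635 CPM at week 5, against 729 and 782 CPM at week 0, and the lipid phosphatase gene Inpp5d had 463 and 557 CPM, against 730 and 555 CPM. Pik3r1, a regulatory subunit of PI3 kinase, stood at 219 and 328 CPM, against 299 and 306 CPM. None of these passed the test. Tyrobp was called without week 5 replicate 2 (1.37, adjusted p = 0.00882, edgeR).

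Below the GM-CSF receptor, 0 of 14 tested genes were called, where 3.37% of all genes were (median 0.054). The survival gene Mcl1 had 338 and 346 CPM at week 5, against 270 and 294 CPM at week 0. Its relative Bcl2a1b had 438 and 276 CPM, against 193 and 193 CPM (log2 fold change 0.89, adjusted p = 0.152, edgeR); near-identical copies of this gene exist, so its level is uncertain. The signal transducer Stat3 had 80.1 and 75.3 CPM, against 88.3 and 92.7 CPM, and the survival gene Bcl2l1 had 48.7 and 51.2 CPM, against 39.2 and 55.0 CPM. None of these passed the test over all genes, though Bcl2a1b was called in 3 of 18 alternatives, such as DESeq2 (0.91, adjusted p = 0.0484).

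Transcription factors known to act on the Csf1r locus gave 1 call among 11 tested, where 3.37% of all genes were called, with a median of 0.18. Egr2, a zinc finger factor induced by growth factors, had 18.5 and 6.52 CPM at week 5, against 2.48 and 0.846 CPM at week 0 (3.12, SE 0.64, adjusted p = 0.0184, edgeR). Its call was lost without week 5 replicate 1 (2.11, adjusted p = 0.358). Spi1, which encodes PU.1, had 327 and 249 CPM, against 271 and 382 CPM, and Irf8 had 666 and 538 CPM, against 516 and 596 CPM. Both overlapped between weeks. Maf had 782 and 1003 CPM, against 1372 and 1280 CPM (-0.57, adjusted p = 0.551).

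Since CSF1R drives microglial division, proliferation genes were read too. Of 11 tested 1 was called, where 3.37% of all genes were (median 0.86, also with the called gene at its bound). Mki67, a marker of cycling cells, had 21 and 18 UMIs at week 5 and 0 in both week 0 libraries. With 3 UMIs allowed to both week 0 libraries together, this is at least 9.82-fold and 14.0-fold higher in the week 5 libraries (adjusted p = 0.00860, edgeR). Without week 0 replicate 2 the adjusted p was 0.0540. Ccnd1, the cyclin of entry into the cycle, had 80.5 and 95.2 CPM at week 5, against 102 and 180 CPM at week 0 (-0.69, adjusted p = 0.270), and was called without week 5 replicate 2 (-0.77, adjusted p = 0.0257, edgeR). Ccnd3 had 80.1 and 103 CPM, against 80.1 and 54.8 CPM. The replication genes Pcna (63.0 and 46.3 CPM, against 47.5 and 36.8 CPM) and Mcm3 (41.6 and 25.4 CPM, against 15.3 and 34.9 CPM) overlapped between weeks.

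Within week 5, Csf1 was concentrated in few clusters, and those were the clusters with the least Csf1r. Values by cluster are CPM of the cluster's total UMIs, for clusters of at least 20 cells in a library, and are descriptions with no test. Csf1 was highest in the Ccl4-led cluster (leading genes Ccl4, Ccl2, Ccl3, Egr1 and Atf3), at 512 and 503 CPM in its 66 and 76 cells. Csf1 was itself among the 10 leading genes of that cluster, though it was not used to make it. The Spp1-led cluster (Spp1, Apoc1, Fabp5, Cst7 and Gpnmb) followed at 222 and 172 CPM. The interferon-gene cluster led by Cxcl10 had 97.9 and 20.0 CPM, and the Gm11808-led cluster, rich in ribosomal protein genes, had 42.8 and 35.7 CPM. The remaining microglia-like clusters lay at 10.2 to 46.1 CPM, with overlapping counting intervals between neighbours in the order.

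Csf1r ran the other way. It was lowest in the Spp1-led cluster, at 1679 and 1311 CPM, and next in the Ccl4-led cluster, at 2060 and 1766 CPM. The BAM-like cells had 2278 and 1803 CPM, which overlaps the Ccl4-led range. The clusters led by Ddit4, Hist1h2ac, Camk2n1 and Ecscr held 3862 to 4180 CPM, and could not be ordered among themselves beyond that spread. At week 0 the same 4 clusters held 3532 to 4130 CPM. Over 17 sums of week 5 microglia-like clusters by library, the Pearson correlation of log2(CPM + 10) between Csf1 and Csf1r was -0.84; sums of 1 library share their depth and preparation.

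The gene with the pattern most like Csf1 among 3558 genes over these sums was Ccl3 (r = 0.93), then Ccl4 (0.93), Atf3 (0.90), Lilrb4a (0.89) and Lpl (0.89). For Csf1r the likest were Vsir (0.98), Susd3 (0.98), Selplg (0.97), P2ry13 (0.97) and Gal3st4 (0.97). For Csf2ra they were Plekha1 (0.91), Neat1 (0.89), Dnmt3a (0.86), Plekhm2 (0.84) and Colgalt1 (0.83), and for Csf2rb they were Epc1 (0.88), Ago2 (0.85), Ganab (0.84) and Bmt2 (0.80).

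**Figure D2:**
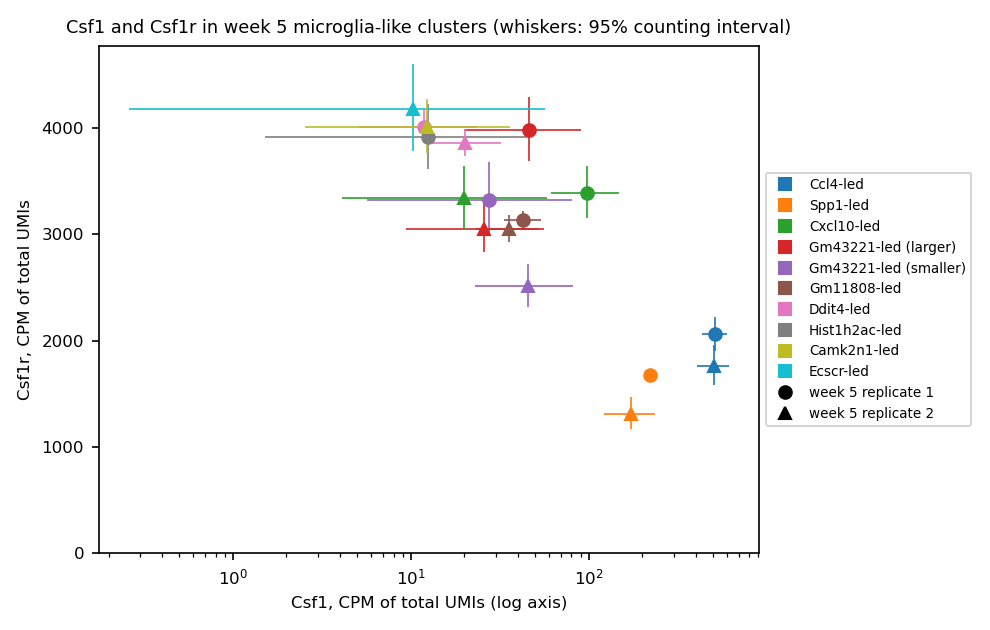
Csf1 (horizontal, log axis) against Csf1r (vertical) in CPM of total UMIs for each week 5 microglia-like cluster of at least 20 cells, circles for replicate 1 and triangles for replicate 2, with 95% counting intervals. The Ccl4-led and Spp1-led points lie at the lower right, with 172 to 512 CPM of Csf1 and 1311 to 2060 CPM of Csf1r, apart from all other clusters.

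The clusters' part in the Csf1 total differed between the week 5 libraries. In week 5 replicate 1 the Spp1-led cluster held 67.2% of the library's Csf1 UMIs and the Ccl4-led cluster 18.6%. In week 5 replicate 2 the Spp1-led cluster held 18.6% and the Ccl4-led cluster 46.7%. At week 0 the Ccl4-led cluster had 7 and 3 cells, yet these held 11 of 30 Csf1 UMIs (36.7%) in replicate 1 and 13 of 72 (18.1%) in replicate 2. The Camk2n1-led cluster of week 0 replicate 2 held 48.6% of that library's Csf1 UMIs, in 207 deep cells at 18.6 CPM.

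At a finer clustering the cells were grouped differently. A Lilrb4a-led cluster of 57 and 65 cells, of which 39 and 61 came from the Ccl4-led cluster above, then had 435 and 417 CPM of Csf1. A finer Ccl4-led cluster of 52 and 29 cells, of which 26 and 15 came from the Ccl4-led cluster above and the others from the Gm11808-led cluster, had 283 and 329 CPM. Csf1r was at 1983 and 1737 CPM in the Lilrb4a-led cells and at 2196 and 1853 CPM in the finer Ccl4-led cells. Lilrb4a encodes an inhibitory immunoglobulin-like receptor.

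To ask which cells hold ligand and receptor together, a cell was called Csf1-detected if it kept a Csf1 UMI at 1000 UMIs. This held for 71 of 851 microglia-like cells (8.34%, exact 95% binomial interval 6.57% to 10.4%) and 45 of 752 (5.98%, 4.40% to 7.93%) at week 5. At week 0 it held for 4 of 757 (0.528%, 0.144% to 1.35%) and 13 of 829 (1.57%, 0.838% to 2.67%). The shallower cells left out numbered 60 and 101 at week 5 and 145 and 69 at week 0. Unthinned, the shares were 26.8% and 11.3% at week 5 and 1.88% and 4.23% at week 0. No T or NK cell-like cell of 31 held a Csf1 UMI, thinned or not, and intervals cover counting error only. Outside the microglia-like clusters, 1 of 75 BAM-like cells (1.33%) and 5 of 15 oligodendrocyte-like cells (33.3%, 11.8% to 61.6%) held a Csf1 UMI on whole counts, and the 5 all came from week 5 replicate 2.

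Most Csf1-detected cells also held Csf1r. At week 5 a Csf1r UMI was found in 60 of 71 (84.5%, 74.0% to 92.0%) and 38 of 45 (84.4%, 70.5% to 93.5%) Csf1-detected cells at the thinned depth, against 90.6% and 91.1% of Csf1-undetected cells. At week 0 it was found in 4 of 4 and 12 of 13 Csf1-detected cells, against 97.9% and 96.9% of the others. On whole counts 241 of 244 (98.8%) and 95 of 96 (99.0%) Csf1-positive cells of week 5 held Csf1r. The mean number of Csf1r UMIs per thinned cell was 1.93 and 2.20 in Csf1-detected cells of week 5, against 3.06 and 3.04 in the others. Receptor UMIs were fewer, but present, in most cells counted with the ligand; this difference in means was not tested.

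The Ccl4-led cluster held 29.6% and 53.3% of the Csf1-detected cells of the week 5 libraries, though 7.40% and 9.84% of the cells. Within it 33.3% and 32.4% of cells were Csf1-detected, the same in both libraries within counting error. The Spp1-led cluster held 43.7% and 4.44% of the Csf1-detected cells, and 16.1% and 4.88% of its own cells were Csf1-detected.

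Csf1r in Csf1-detected cells was then set against Csf1-undetected cells of the same library, from summed whole counts. It had 2220 and 2129 CPM in Csf1-detected cells, against 2802 and 2820 CPM in Csf1-undetected cells. It was lower in both libraries, but the log2 fold change of -0.37 (SE 0.26, 95% interval -0.88 to 0.14) did not pass (adjusted p = 0.615, edgeR over 9760 genes, library as a block). It passed when detection was read at 2000 UMIs (-0.42, adjusted p = 0.0141), on whole counts (-0.30, adjusted p = 0.00296) or without the Spp1-led cluster (-0.45, adjusted p = 0.0142). Within the Ccl4-led cluster the levels were 2064 and 1739 CPM in Csf1-detected cells, against 2070 and 1779 CPM in Csf1-undetected cells, with overlapping counting intervals. In the Spp1-led cluster they were 1595 and 1921 CPM (the second from 2 cells), against 1697 and 1291 CPM. In all other microglia-like cells they were 2631 and 2928 CPM from 19 cells each, against 3481 and 3484 CPM, where the intervals did not overlap.

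**Figure D3:**
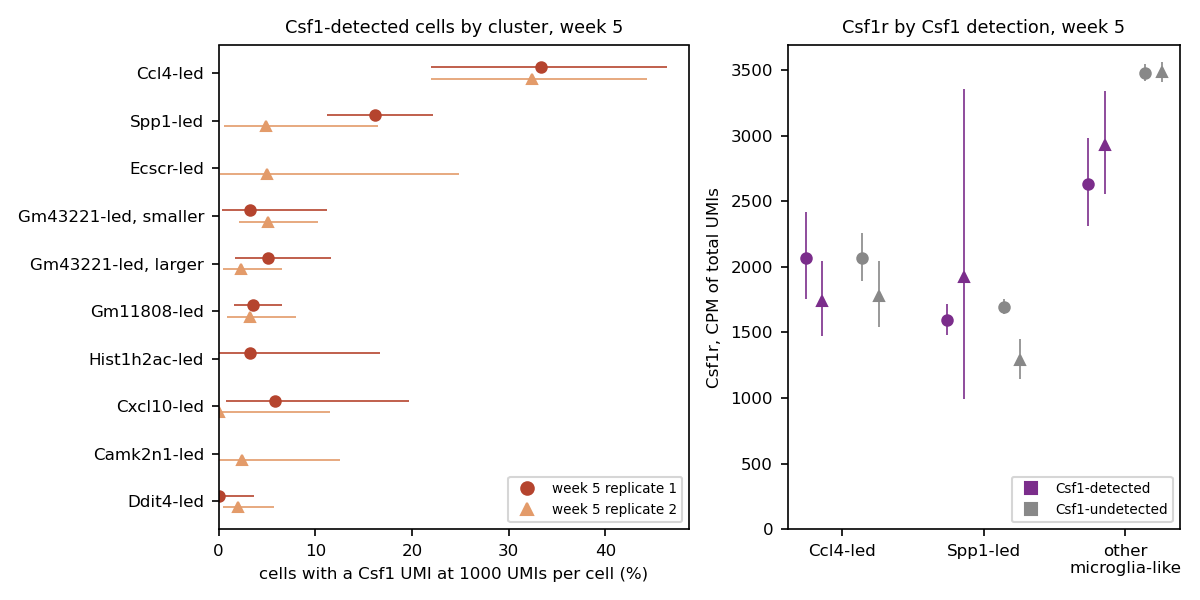
Left: percent of cells of each week 5 microglia-like cluster with a Csf1 UMI at 1000 UMIs per cell; right: Csf1r in CPM of total UMIs for Csf1-detected and Csf1-undetected cells of 3 groups of clusters; circles are replicate 1, triangles replicate 2 and whiskers 95% counting intervals. In the Ccl4-led cluster 33.3% and 32.4% of cells are Csf1-detected, and Csf1r there is 2064 and 1739 CPM in Csf1-detected cells, against 2070 and 1779 CPM in Csf1-undetected cells.

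Across all genes, Csf1-detected cells of week 5 differed from Csf1-undetected cells at 326 of 9760 genes, or 3.34%, with 218 (2.23%) higher and 108 (1.11%) lower. Scaled by library size alone the split was 146 higher and 244 lower, and the median over all genes was -0.22 on the log2 scale in place of -0.015. With DESeq2 90.1% of calls were higher. The count rests on 2 pairs of sums and moved with the settings, down to 71 genes with DESeq2. In the edgeR p-values and intervals of this comparison, disagreement between the 2 libraries carries little weight, since spread was pooled over all genes. Csf1-detected cells had a median of 7960 and 2248 UMIs, against 6291 and 4053 UMIs in the others.

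Ccl4 and Ccl3, which encode chemokines, were higher in Csf1-detected cells. Ccl4 had 2090 and 6432 CPM in Csf1-detected cells, against 655 and 212 CPM in Csf1-undetected cells (log2 fold change 3.28, SE 0.30, adjusted p = 9.41e-24, edgeR). DESeq2 did not call it (adjusted p = 0.252). The top Csf1-detected cell gave 27.3% and 37.1% of the Ccl4 UMIs of these cells. On whole counts 47.9% and 37.8% of Csf1-detected cells held Ccl4, against 14.6% and 6.65% of the others. Ccl3 had 1279 and 1872 CPM, against 354 and 129 CPM (2.81). Lpl, lipoprotein lipase, had 2237 and 1190 CPM, against 569 and 170 CPM (2.37). On whole counts 78.9% and 60.0% of Csf1-detected cells held it, against 36.9% and 22.2% of the others. Ch25h, cholesterol 25-hydroxylase, had 245 and 89.4 CPM, against 57.0 and 13.6 CPM (2.25). In Csf1-detected cells of replicate 2 it rested on 16 UMIs in 5 cells, of which the top cell gave 43.8%.

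The stress factor Atf3 had 234 and 475 CPM in Csf1-detected cells, against 67.6 and 27.1 CPM in Csf1-undetected cells (2.79, adjusted p = 9.57e-33, edgeR). Lilrb4a had 373 and 620 CPM, against 105 and 64.3 CPM (2.48). Plaur, the urokinase receptor, was higher by 2.42 on the log2 scale, the differentiation inhibitor Id2 by 2.15, the secreted-protein kinase Fam20c by 2.12 and the myosin Myo1e by 2.03. Atf3, Ccl3, Lilrb4a, Plaur, Lpl, Ch25h, Fam20c and Myo1e were called in the same direction in all 12 alternatives run for them.

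Some calls rested on single cells. The antigen-presentation genes H2-Aa (2.53), H2-Eb1 (2.75), H2-Ab1 (2.11) and Cd74 (1.83) were higher in Csf1-detected cells, but 1 cell gave 66.9% of the H2-Aa UMIs and 64.5% of the H2-Eb1 UMIs of the Csf1-detected cells of replicate 1. Over all cells, with BAM-like cells included, none of these 4 was called (H2-Aa adjusted p = 0.421, edgeR). With a second thinning draw H2-Aa, H2-Eb1 and H2-Ab1 were not called either. Mmp12, a macrophage elastase, had 92 and 10 UMIs in Csf1-detected cells (4.50), of which 1 cell gave 38.0% and 90.0%. For Cxcl16, Igf1, Clec7a and Plaur the top Csf1-detected cell gave 42.9%, 41.7%, 34.5% and 33.3% of the UMIs in replicate 2. In replicate 1 the top cell gave 8.82%, 13.8%, 7.63% and 8.57%.

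Several genes of resting microglia were lower in Csf1-detected cells. P2ry12, the purinergic receptor that guides processes, had 599 and 604 CPM in Csf1-detected cells, against 1475 and 1673 CPM in Csf1-undetected cells (-1.38, adjusted p = 3.64e-06, edgeR). Tmem119 had 216 and 397 CPM, against 655 and 842 CPM (-1.36). Also lower on the log2 scale were Tmem173 (-1.22), which encodes STING, Lrrc3 (-1.46), Col27a1 (-1.43), Mtus1 (-1.36) and the mRNA decay factor Zfp36l2 (-1.11). Ddit4, a glucocorticoid-responsive gene, stood at -1.87. Mtss1 stood at -3.60, with 2 and 0 UMIs in Csf1-detected cells. Cxcl10 was lower (-2.62) from 10 and 0 UMIs and was higher with a second thinning draw (1.47), so its direction depended on the draw.

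**Figure D4:**
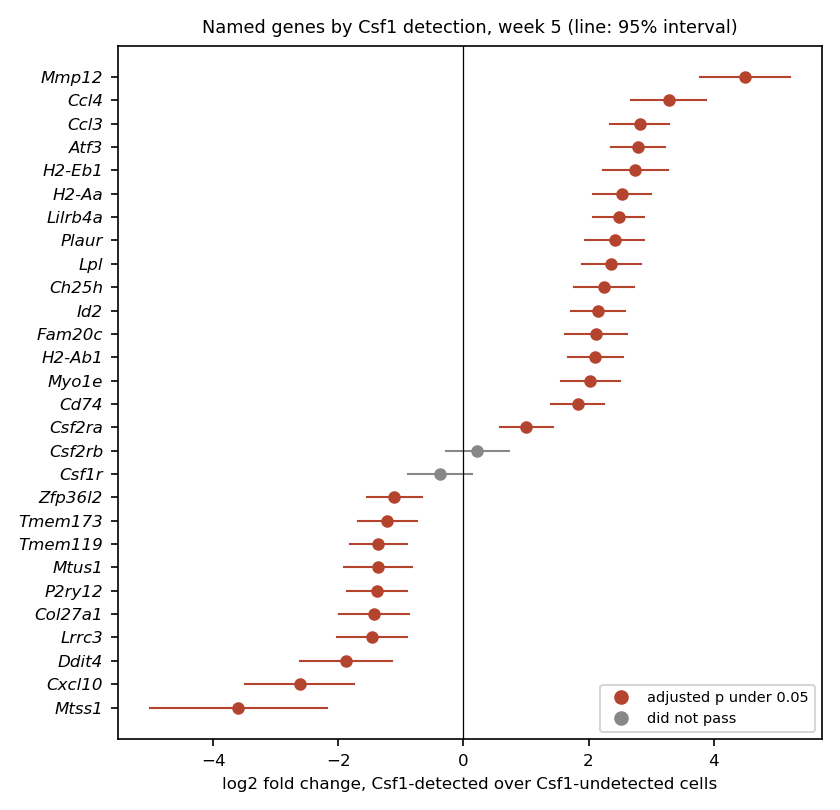
Log2 fold change of named genes and of Csf1r, Csf2ra and Csf2rb between Csf1-detected and Csf1-undetected microglia-like cells of week 5, with 95% intervals from edgeR; coloured genes had an adjusted p under 0.05. Ccl4 lies at 3.28 and Csf2ra at 1.01, P2ry12 lies at -1.38, and the intervals of Csf1r (-0.37) and Csf2rb (0.22) include 0.

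Of all genes 2.23% were higher and 1.11% lower in Csf1-detected cells. By list, 16 of 24 disease-associated microglia genes were higher in Csf1-detected cells and 0 lower, with a median log2 fold change of 0.98 beside -0.015 for all genes. Examples are the lectins Lgals3 (1.57) and Clec7a (1.58), the integrin Itgax (1.52), the growth factor Igf1 (1.45), Gpnmb (1.40) and Spp1 (1.08), while Trem2 (0.21) and Apoe (0.95) did not pass. Also called in this list were Ccl6 (1.09), Cd9 (1.04), Fabp5 (1.00), Ank (0.97), Cd63 (0.96), Cst7 (0.88) and Axl (0.81). For Gpnmb, Spp1, Fabp5, Ank and Cst7 the rise was larger in replicate 1, with log2 ratios of 1.55, 1.63, 1.30, 1.11 and 1.18. In replicate 2 their ratios were 0.35, 0.40, 0.25, 0.36 and 0.17. Gpnmb rested there on 4 UMIs in 3 cells, and in replicate 1 a single cell gave 46.2% of its UMIs. Ratios of the other called genes of the list were similar in both libraries or larger in replicate 2. Of 18 homeostatic microglia genes 8 were lower and 0 higher (median -0.57), among them P2ry13 (-1.08), Slc2a5 (-1.26), Crybb1 (-1.22), Sall1 (-1.02), Siglech (-0.89) and Selplg (-0.88), while Cx3cr1 (-0.63) did not pass.

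Of 9 tested chemokines 4 were higher and 2 lower (median 0.74), with Cxcl16 (1.38) and Cxcl14 (1.81) beside Ccl3 and Ccl4, and Cxcl9 (-2.89) beside Cxcl10. The libraries went opposite ways for Cxcl14, with 165 and 0 CPM in Csf1-detected cells, against 35.3 and 12.3 CPM in the others. Cxcl9 rested on 3 and 0 UMIs, all from 1 cell. On whole counts 1.41% and 0% of Csf1-detected cells held it, against 0.769% and 0.566% of the others. Of 16 NF-kB and inflammatory genes 2 were higher, where 2.23% of all genes were (median 0.46). These were Cd83 (1.22) and Il1rn (3.28), the interleukin 1 receptor antagonist, of which 1 cell gave 91.7% of the UMIs in replicate 2. Tnf (1.45, adjusted p = 0.240), Nfkbia (-0.048) and Il1b (0.83) did not pass. Of 15 immediate early and dissociation genes 5 were higher (median 0.98), namely Atf3, Egr1, Egr2 (2.56), Egr3 and Rgs1. Egr3 was found in 4 and 3 Csf1-detected cells, of which 1 gave 58.8% and 63.6% of its UMIs, and 1 cell gave 47.7% of the Egr1 UMIs in replicate 1. Such genes also respond to tissue handling, and their part in the differences was not tested. Of 19 interferon-response genes Cxcl10 was the 1 called, downward (median 0.22).

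The CSF1R signalling list had 0 of 23 genes called in Csf1-detected cells (median -0.15) and the GM-CSF receptor signalling list 0 of 12 (median 0.23). Of all genes 3.34% were called, a share at which lists this short can give 0. Of 11 transcription factors of the Csf1r locus, Egr2 and Mitf (0.95, adjusted p = 0.00730) were higher and Maf (-0.78, adjusted p = 0.0248) was lower (edgeR; median 0.020), while Spi1 (-0.014) and Irf8 (0.28) did not pass. Of 8 proliferation genes 0 were called (median 0.55).

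Of 10 BAM markers 4 and 2 were detected in Csf1-detected cells, with summed levels of 94.8 and 18.0 CPM of total UMIs, against 10 and 7 markers and 107 and 29.7 CPM in Csf1-undetected cells. Mrc1, Lyve1, Cd163, F13a1, Cbr2 and Clec10a were at 0 in the Csf1-detected cells of both libraries. Of 9 monocyte markers 3 and 1 were detected, at 14.0 and 6.01 CPM, against 5 and 5 at 8.27 and 9.79 CPM, with Ly6c2 at 0 in the Csf1-detected cells. The 12 microglia markers summed to 13385 and 16533 CPM in Csf1-detected cells, against 19768 and 24977 CPM in the others. Oligodendrocyte precursor markers, of which 1 of 4 was detected in Csf1-detected cells of either library with Pdgfra, Olig1 and Olig2 at 0, summed to 45.1 and 18.0 CPM, against 16.9 and 6.89 CPM. Endothelial markers, of which 3 and 1 of 5 were detected with Cldn5 and Ly6c1 at 0, summed to 94.8 and 30.1 CPM, against 58.8 and 22.5 CPM. Both were higher in Csf1-detected cells of both libraries, and their part in the results was not tested. Astrocyte markers (91.7 and 222 CPM, against 184 and 300 CPM) and B cell markers (90.1 and 132 CPM, against 179 and 210 CPM) were lower.

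Csf2ra was higher in the cells counted with Csf1. It had 224 and 285 CPM in Csf1-detected cells, against 115 and 136 CPM in Csf1-undetected cells of week 5. The log2 fold change was 1.01 (SE 0.21, 95% interval 0.59 to 1.43, adjusted p = 0.000262, edgeR), and a Csf2ra UMI was found in 74.6% and 60.0% of Csf1-detected cells, against 42.2% and 39.3% of the others on whole counts. The call was lost without the Ccl4-led cluster (0.73, adjusted p = 0.250), with all 4 libraries (0.76, adjusted p = 0.173) and with DESeq2 (1.01, adjusted p = 0.0967). Csf2rb had 101 and 67.1 CPM in Csf1-detected cells, against 78.1 and 73.8 CPM in Csf1-undetected cells, higher in 1 library and lower in the other (0.22, adjusted p = 0.824).

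By cluster at week 5, Csf2ra was highest in the Ccl4-led cluster, at 269 and 411 CPM of total UMIs. The larger and the smaller Gm43221-led clusters followed, at 254 and 313 CPM and at 183 and 283 CPM, and their ranges overlap those of the Ccl4-led cluster. The Spp1-led cluster had 142 and 181 CPM, and the clusters led by Ecscr, Camk2n1 and Hist1h2ac had 61.5, 70.2 and 18.7 CPM in the 1 library with enough cells. At the finer clustering the Lilrb4a-led cells had 544 and 634 CPM of Csf2ra, against 112 and 165 CPM in the finer Ccl4-led cells. At week 0, where the Ccl4-led cluster had too few cells, the Gm43221-led clusters had 141 to 182 CPM, against 51.9 to 80.1 CPM in the clusters led by Ecscr, Hist1h2ac and Camk2n1. Without the Gm43221-led clusters Csf2ra passed the test between weeks (1.10, adjusted p = 0.0152, edgeR).

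Csf2rb showed no such order. Its levels at week 5 lay between 30.7 CPM in the Ecscr-led cluster (20 cells) and 183 CPM in the smaller Gm43221-led cluster of replicate 1 (82 cells, against 83.2 CPM in replicate 2), and the Ccl4-led cells had 75.8 and 97.6 CPM. The Spp1-led cells had 67.1 and 53.0 CPM and the BAM-like cells 76.8 and 114 CPM. Neighbours in the order overlapped throughout.

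**Figure D5:**
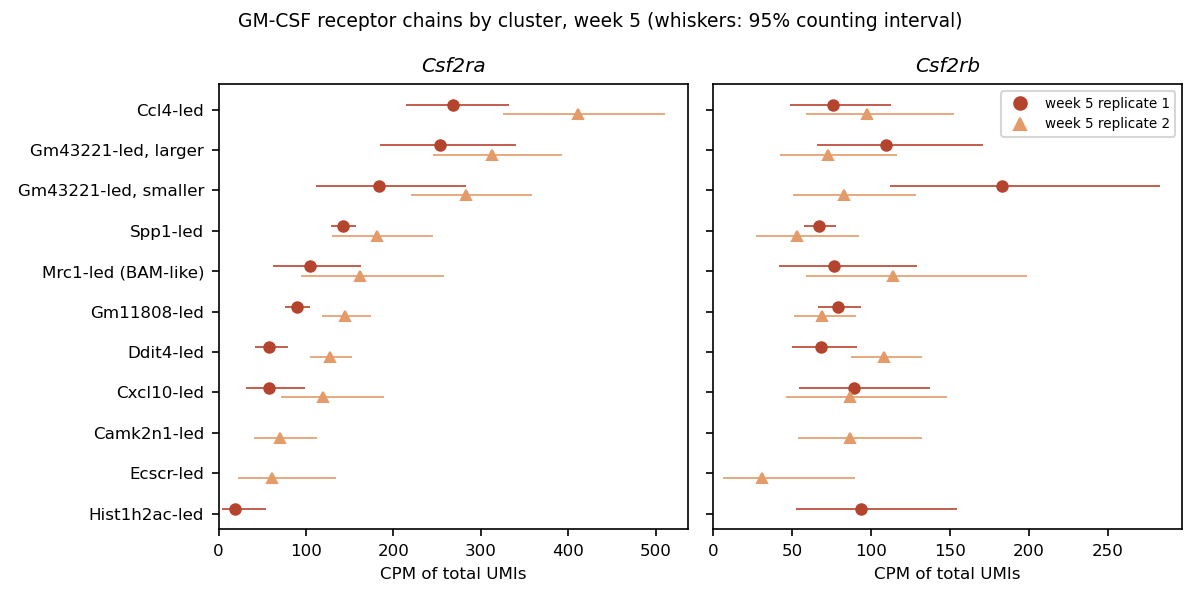
Csf2ra (left) and Csf2rb (right) in CPM of total UMIs by week 5 cluster of at least 20 cells, circles for replicate 1, triangles for replicate 2, with 95% counting intervals. Csf2ra reaches 269 and 411 CPM in the Ccl4-led cluster, while Csf2rb is 75.8 and 97.6 CPM there.

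The chains of the GM-CSF receptor were seldom counted in the same cell. A Csf2ra UMI was found in 13.3% and 16.8% of microglia-like cells at week 5 and in 12.2% and 7.84% at week 0, at 1000 UMIs. For Csf2rb the shares were 8.93% and 9.31% at week 5 and 8.06% and 7.36% at week 0. In T or NK cell-like cells of all libraries they were 9.68% (3 of 31) and 3.23% (1 of 31). The Csf2ra share of week 0 replicate 2 was below the first of these. The set may hold monocytes, so this is not a background level. Both chains were found in 12 (1.41%) and 13 (1.73%) cells at week 5, against 7 (0.925%) and 2 (0.241%) at week 0. The product of the single shares was 1.19% and 1.56% at week 5, against 0.979% and 0.577% at week 0. On whole counts both chains were found in 16.6% and 9.50% of cells at week 5, against 3.55% and 8.46% at week 0. At this depth a cell with both chains expressed would often show only 1, so these shares are not shares of receptor-bearing cells. Over all libraries 12.4% of microglia-like cells held Csf2ra and 8.40% held Csf2rb at 1000 UMIs, against 6.94% and 8.33% of BAM-like cells, 5 and 6 of 72.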

How the data were processed

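The values in the tables deposited by the authors are whole UMI counts for each gene in each barcode, with no normalization. The submitters' processing notes name Cell Ranger 3.0.0, STAR, Seurat 4 and mm10 without their roles. No source used here states how barcodes and genes were chosen or whether counting used strand. Genes missing from 1 table were set to 0 in it.

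Barcodes under 500 genes or over 10% mitochondrial UMIs were removed (272 of 4000), and scrublet marked 21 of the 3728 kept (0.563%) as doublets, which were left out. The rest were clustered in scanpy 1.11.5 (2000 variable genes without the 4 members, 30 principal components, 15 neighbours, Leiden resolution 1) into 14 clusters and named from markers. Csf1r was left out of the microglia markers and Fn1 out of the monocyte markers, and the naming rule was set with clusters seen. Outside the microglia-like clusters, 75 cells were BAM-like and 68 were choroid plexus epithelium-like, T or NK cell-like or oligodendrocyte-like.

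Counts were summed per library over microglia-like cells (2227160 to 6139158 UMIs) and tested with edgeR 4.0.16 (quasi-likelihood, TMM, filterByExpr, Benjamini-Hochberg over all genes tested). Csf1-detected and Csf1-undetected cells were summed within each week 5 library and fitted with library as a block. All p-values and 95% intervals of that fit draw on a spread pooled over all genes. A gene's own disagreement between the 2 libraries carries little weight in them. Cxcl14, for example, was called with log2 ratios of 2.19 and -3.73 in the 2 libraries. The scripts were tested on simulated data. DESeq2 1.42.0 and limma 3.58.1 served as alternatives.

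The 4 members and all gene lists were chosen with earlier results of these data known. Named genes are the members; called genes of the pathway lists with up to 4 others of highest level; in Csf1-detected cells the 15 higher and 10 lower genes of smallest p and called list genes; and the 5 genes likest each member, among genes with a mean of at least 50 CPM. Some genes that this rule names are not reported here. Alternatives that leave out a cluster, the crossed pairing and the second thinning draw were chosen after seeing the data. RefSeq promoters were found for 2 of the 4 members, and gene positions are from GENCODE (GRCm38). Replicates were not near-identical: chi-square per degree of freedom between them was 29.2 at week 5 and 12.7 at week 0.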

Additional observations from a re-analysis of the deposited data

How the results depend on the processing

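Csf1 between weeks was called in the same direction in all 18 alternatives (log2 fold change 2.26 to 3.64), and Csf1r (-0.47 to -0.17) and Csf2rb (0.15 to 0.51) were called in none of theirs. Csf2ra (main 0.90, not called) was called under the crossed pairing (0.90), DESeq2 (0.92), limma-voom (0.90), no gene filter (0.89), a common limit on genes per cell (0.83), without the Gm43221-led clusters (1.10) and without either week 5 library, with 0.84 to 1.02 over the libraries left out. Where 1 library is left out, the lone library of that week is assumed to vary as the other week does. Bcl2a1b, not called, was called in 3 alternatives and Tyrobp and Ccnd1 in 1 each. The number of genes changed between weeks was 828 with no gene filter, 159 with cells thinned to 1000 UMIs, 557 with the common limit, and 298 to 1460 leaving out a library, the highest without week 5 replicate 2. With the replicate number as a block it was 501, with 370 of the 371 genes kept, and Csf1 was at 2.90 and Csf2ra at 0.90 (adjusted p = 0.0708, edgeR); no member's call changed. The differences between replicates correlated only weakly between the weeks (r = -0.142), and the crossed pairing gave 466 genes.

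For Csf1-detected against Csf1-undetected cells the number was 1824 with detection on whole counts, 104 with thinned sums, 139 with all 4 libraries, 71 with DESeq2, 217 with the second thinning draw (147 of the 326 genes kept) and 97 without the Ccl4-led cluster. With 1 library there is no test of it. Csf1r, not called, was called on whole counts (-0.30), at 2000 UMIs (-0.42) and without the Spp1-led cluster (-0.45); in single libraries it was -0.49 and -0.38, with no test. The mean share of Csf1-detected cells with Csf1r (84.5%) was 98.9% unthinned, 63.2% at 500 UMIs, 93.3% at 2000 UMIs, 83.7% over all cells and 82.9% with the second draw, and 84.4% to 84.5% leaving out a library. The mean Csf1 level of the Ccl4-led cluster, 507 CPM, was 306 CPM at resolution 2.

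Signs turned as follows, and the causes were not tested. Csf2rb in Csf1-detected cells was -0.15 with thinned sums and -0.22 without the Spp1-led cluster. Cxcl10 was 2.47 on whole counts, 2.19 at 2000 UMIs and 1.47 with the second draw. Between weeks, library size alone gave Csf3r -0.18, Bcl2l1 -0.16 and Irf8 -0.13. Csf3r was -0.016 over all cells and -0.019 with no cell filter, Irf8 was -0.063 thinned, Pik3r1 was 0.028 without the Spp1-led cluster and Bcl2l1 was -0.068 without the Ccl4-led cluster. Leaving out a library gave -0.42 to 0.13 for Pik3r1, -0.15 to 0.35 for Bcl2l1, -0.037 to 0.31 for Irf8, -0.42 to 0.093 for Spi1 and -0.053 to 1.15 for Mcm3. None of these between-week values was called. With 2 libraries a group, and medians of 1499.5 to 6117 UMIs per cell, a gene of few UMIs is seen in few of the cells that express it.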
